A study of Homo sapiens with 12 samples.

Results

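The anterior neural plate genes examined here were SIX3, SIX6, HESX1, LHX2, LHX5, FEZF1, RAX and PAX6, together with SIX3-AS1 and FEZF1-AS1, antisense RNA genes that overlap SIX3 and FEZF1. The 10 genes were found by name among the 58575 genes of the count table and the 60617 genes of the TPM table. They were selected on their measured values in Cond 2 against Cond 1, among genes of this tissue, so that comparison, and Cond 3 against Cond 2, which shares the Cond 2 libraries, are given as description without a test. RNA-Seq was measured in 201B7, an established human iPSC line grown in StemFit medium, on Day 5 of culture in 4 conditions. Cond 1 was routine maintenance culture. Cond 2 used StemFit that had been kept at 56 °C for 30 min, Cond 3 used DMEM supplemented with 10% FBS, MEM NEAA and GlutaMax, and in Cond 4 the cells were pipetted 20 times at passage and then grown as in Cond 1. The authors describe the heat-treated medium as given from Day 2 and the FBS stimulus as given on Day 4. Between Cond 2 and Cond 3, medium and length of exposure thus cannot be told apart. Every condition had 3 libraries, from wells of a single cell line in 3 plates, so p-values measure the spread between these libraries, which may be technical.

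In the vertebrate embryo, the front of the neural plate gives rise to the forebrain and the eyes. SIX3, SIX6 and RAX are homeobox transcription factors of the eye field and anterior forebrain, and SIX3 is known to repress WNT genes there. HESX1 is a paired-like homeobox repressor of the anterior forebrain and pituitary, LHX2 and LHX5 are LIM homeobox factors, FEZF1 is a zinc finger repressor of the forebrain, and PAX6 is a paired box factor of the eye, forebrain and early human neuroectoderm.

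The sequence before the start of 4 of the genes is shown because these genes took different courses in the altered media: HESX1 and RAX were highest in Cond 2, FEZF1 was also high in Cond 3, and SIX6 was high in neither. RefSeq start sites on GRCh38.p14 were at hand for 7 of the 10 genes, in 17 windows that ran from 250 bases before to 50 bases after the start. The windows were searched on both strands for TAATTA (the core bound by many homeodomain proteins), TAATCC (reverse complement GGATTA, the OTX-type core) and ATCAAAG (reverse complement CTTTGAT, the TCF/LEF core). TAATTA was in 4.84% of 35116 windows of this length, TAATCC in 6.36% and ATCAAAG in 2.62%. Matches are in capitals. HESX1 is shown at chr3:57200029-57200178, minus strand, from 200 to 51 bases before the start, FEZF1 at chr7:122304751-122304950, minus strand, RAX at chr18:59273455-59273654, minus strand, and SIX6 at chr14:60508946-60509145, plus strand, each of the last 3 as the 200 bases before the start.
HESX1: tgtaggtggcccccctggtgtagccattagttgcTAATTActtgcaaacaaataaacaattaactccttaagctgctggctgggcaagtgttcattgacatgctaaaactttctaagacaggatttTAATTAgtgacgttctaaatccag
FEZF1: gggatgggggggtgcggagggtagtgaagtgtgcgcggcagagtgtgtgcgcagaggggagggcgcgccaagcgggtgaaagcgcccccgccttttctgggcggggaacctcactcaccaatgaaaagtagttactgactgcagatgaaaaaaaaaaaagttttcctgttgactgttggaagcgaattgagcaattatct
RAX: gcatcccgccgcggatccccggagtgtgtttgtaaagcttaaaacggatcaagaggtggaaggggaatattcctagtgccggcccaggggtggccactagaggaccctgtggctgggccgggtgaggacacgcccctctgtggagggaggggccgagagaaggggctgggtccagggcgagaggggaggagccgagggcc
SIX6: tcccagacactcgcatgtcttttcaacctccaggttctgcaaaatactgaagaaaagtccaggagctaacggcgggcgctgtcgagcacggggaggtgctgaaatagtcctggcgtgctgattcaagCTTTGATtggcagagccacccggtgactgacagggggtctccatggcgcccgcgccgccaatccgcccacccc
HESX1 held TAATTA 2 times, beginning 166 and 74 bases before the start, and SIX6 held CTTTGAT 73 bases before it. None of the 3 motifs was in the windows of RAX, FEZF1, LHX2, PAX6 or SIX3-AS1. The G and C share of the stretches shown was 40.0% for HESX1, 54.5% for FEZF1, 66.0% for RAX and 59.5% for SIX6. The second RefSeq start of HESX1 lies beside APPL1 and held none of the motifs.

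Total counts were 16441148 to 21871503 per library. All 10 genes passed the filter on low counts, in which 17747 genes were tested. The 12 primed pluripotency genes of a list summed to 6858 to 7267 TPM per library in Cond 1, 6097 to 6863 TPM in Cond 2, 7046 to 7528 TPM in Cond 3 and 6972 to 7287 TPM in Cond 4, although single genes of the list fell, as given with the other lists. In Cond 2 the means of SOX2 (908 to 1304 TPM) and LIN28A (1689 to 2117 TPM) rose, so the sum does not show the falls of other genes. POU5F1, which has near-identical copies elsewhere in the genome, was counted at a mean of 1.32 TPM in Cond 1. In Cond 2 it was at 0.592 TPM and was not called (log2 fold change −1.23, adjusted p = 0.0584 in edgeR). RNA was taken from whole cultures, so more cells with a transcript and more transcript per cell cannot be told apart.

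In Cond 1 the genes of the anterior neural plate were at low levels. Their summed level was 40.8 ± 9.15 TPM (SD, n = 3), and HESX1 alone gave 43.0% of it. In Cond 2 the sum was 856 ± 207 TPM, in Cond 3 it was 176 ± 22.9 TPM, and in Cond 4 it was 50.4 ± 12.2 TPM. The largest contributors in Cond 2 were LHX5 with 30.6% of the sum, HESX1 with 20.3% and SIX3 with 18.2%. In Cond 3 they were FEZF1 with 34.3% and FEZF1-AS1 with 28.1%, and SIX3 gave 1.55%. Cond 2 and Cond 3 thus differed in which of these genes made up the sum, as well as in its size.

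**Figure D1:**
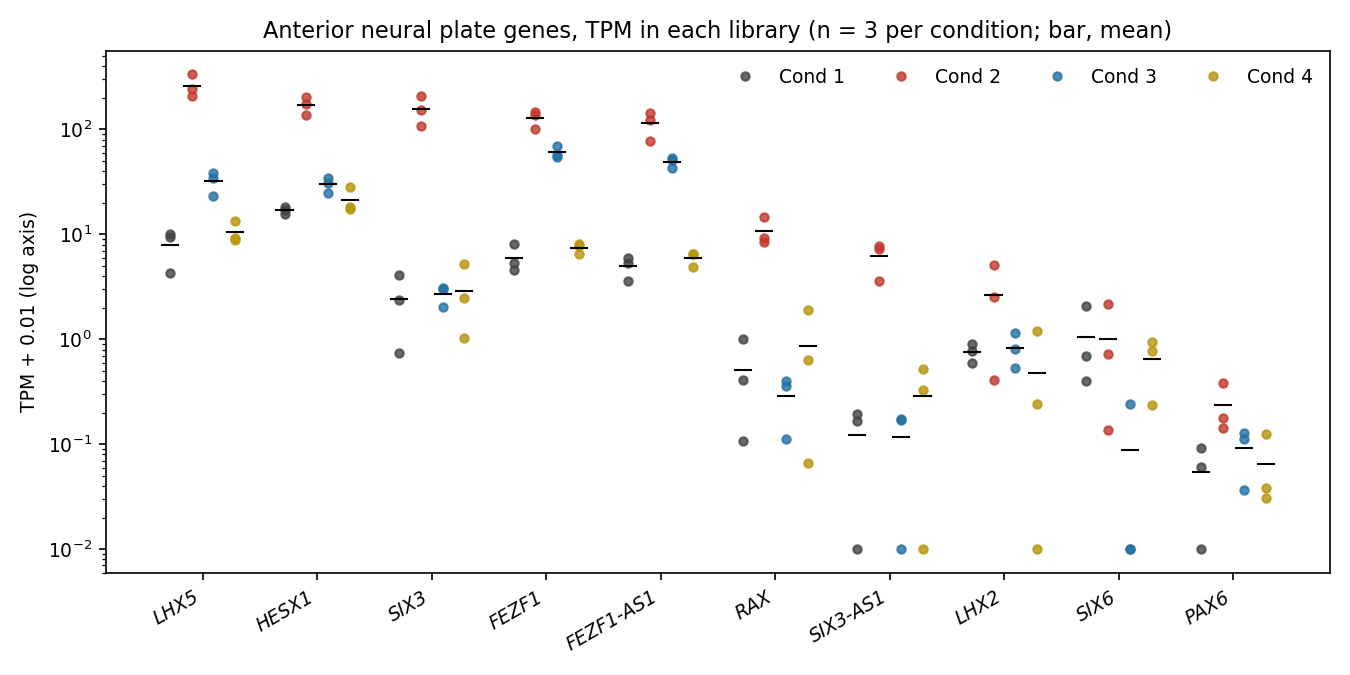
TPM plus 0.01 (log axis) of the 10 genes in each of the 12 libraries; points are libraries, coloured by condition, and bars are means of 3. LHX5, HESX1, SIX3, FEZF1, FEZF1-AS1, RAX, SIX3-AS1 and PAX6 were higher in every Cond 2 library than in any Cond 1 library. FEZF1, FEZF1-AS1, LHX5 and HESX1 took a middle position in Cond 3.

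In Cond 2 against Cond 1, 8 of the 10 genes were called higher by edgeR (fold change over 2 at an adjusted p below 0.05) and none lower. Over all genes tested, 1.84% passed upwards and 2.5% downwards. The same 8 genes had all 3 Cond 2 libraries above all 3 Cond 1 libraries in TPM, as had 24.4% of all genes tested. Because this contrast was used in choosing the genes, the counts describe the choice and nothing is read from them.

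Among the eye field genes, SIX3 was at 0.736, 2.34 and 4.09 TPM in Cond 1 and at 209, 155 and 109 TPM in Cond 2. The groups were far apart, although the Cond 1 libraries themselves spread over 11 to 65 reads. The log2 fold change was 5.94 (SE 0.34). RAX was at 0.0975, 0.398 and 1.01 TPM in Cond 1 and at 14.5, 8.51 and 9.19 TPM in Cond 2, a log2 fold change of 4.29 (SE 0.56). RAX had 31 reads in all 3 Cond 1 libraries together, and without replicate 3 of Cond 1 its log2 fold change was 5.39. Without the same library that of SIX3 was 6.65. SIX6, the closest relative of SIX3, took no such course. It was at 0.391, 0.684 and 2.08 TPM in Cond 1 and at 0.710, 0.126 and 2.16 TPM in Cond 2, and the groups overlapped (log2 fold change −0.21, SE 0.78).

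HESX1 was the highest of the 10 genes in Cond 1, at 15.8, 17.2 and 18.2 TPM, and the Cond 1 libraries were close together. In Cond 2 it was at 205, 174 and 137 TPM, and the log2 fold change was 3.25 (SE 0.17), the smallest among the genes above 5 TPM in Cond 2. LHX5 was at 4.27, 10.2 and 9.36 TPM in Cond 1 and at 334, 244 and 207 TPM in Cond 2 (log2 fold change 4.97, SE 0.23), which made it the highest of the 10 genes there. Its lowest Cond 2 library was just above the highest HESX1 library. The other LIM homeobox gene, LHX2, was at 0.396, 2.52 and 5.07 TPM in Cond 2 against 0.582, 0.764 and 0.888 TPM in Cond 1. One Cond 2 library lay below all of Cond 1, and LHX2 was not among the 8 genes (log2 fold change 1.72, 95% interval 0.21 to 3.23). Without replicate 1 of Cond 2 the value was 2.22 and LHX2 was called.

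FEZF1 was at 4.57, 8.06 and 5.34 TPM in Cond 1 and at 148, 136 and 101 TPM in Cond 2, a log2 fold change of 4.36 (SE 0.17). PAX6 stayed near the limit of detection. It had 0, 5 and 10 reads in Cond 1 and 14, 20 and 37 reads in Cond 2, which is a mean of 0.0447 and 0.225 TPM. The fitted fold change of PAX6 was 4.58, with a 95% interval of 0.60 to 3.79 on the log2 scale. Its call was lost under several alternatives, and leaving out 1 library moved the log2 fold change between 1.61 (without replicate 1 of Cond 1) and 3.07 (without replicate 3 of Cond 1).

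The level order in Cond 2 was LHX5 (262 ± 65.4 TPM), HESX1 (172 ± 33.8 TPM), SIX3 (158 ± 50.4 TPM), FEZF1 (128 ± 24.7 TPM) and FEZF1-AS1 (115 ± 34.8 TPM), followed at a distance by RAX (10.7 ± 3.28 TPM), SIX3-AS1 (6.20 ± 2.26 TPM), LHX2 (2.66 ± 2.34 TPM), SIX6 (0.998 ± 1.05 TPM) and PAX6 (0.225 ± 0.128 TPM; n = 3 for each). From HESX1 to FEZF1-AS1, neighbours in this order overlapped between libraries, and so did SIX3-AS1 and LHX2, LHX2 and SIX6, and SIX6 and PAX6, while the libraries of RAX were all below those of FEZF1-AS1. The TPM of PAX6 is scaled to a length of 20639 bases, against 1151 to 3725 bases for the other genes. By reads, PAX6 (71 in Cond 2) was above SIX6 (41), so their order in TPM depends on this length. Replicate 1 was the highest Cond 2 library for 6 of the 10 genes.

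Cond 3 against Cond 1 asked how the serum medium, meant to let the cells differentiate, compared with routine culture. FEZF1, FEZF1-AS1 and LHX5 rose and SIX6 fell, whereas SIX3 and RAX were not called. That is 3 of 10 genes upwards and 1 downwards, against 4.85% and 3.31% of all genes tested. In TPM, 4 genes had all Cond 3 libraries above all Cond 1 libraries, which 26.6% of all genes did. These tests use the same Cond 1 libraries as the comparison that chose the genes.

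FEZF1 was at 70.0, 54.3 and 57.3 TPM in Cond 3, above every Cond 1 library, with a log2 fold change of 3.33 (SE 0.17, adjusted p = 8.80e-13). Its mean was 47.1% of that in Cond 2. LHX5 was at 38.8, 23.3 and 34.8 TPM, with a log2 fold change of 2.01 (SE 0.24, adjusted p = 6.06e-07) and a mean of 12.3% of that in Cond 2. HESX1 was at 34.4, 31.1 and 24.7 TPM, and every library was above Cond 1. Its adjusted p-value was 0.00125, but its log2 fold change of 0.79 (SE 0.18) was below the 2-fold limit.

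SIX3 was at 3.07, 3.03 and 2.01 TPM in Cond 3, inside the range of Cond 1. The log2 fold change was 0.14 with a 95% interval of −0.87 to 1.14 (adjusted p = 0.858), and its mean was 1.72% of that in Cond 2. RAX was at 0.351, 0.392 and 0.101 TPM, again inside the range of Cond 1, with a log2 fold change of −0.86 (95% interval −2.51 to 0.78, adjusted p = 0.425). The intervals for SIX3 and RAX lay below that of FEZF1, which began at 2.97. LHX2 (0.10, 95% interval −1.53 to 1.72) and PAX6 (0.83, 95% interval −0.86 to 2.53) were not called and their intervals were wide.

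SIX6 fell in Cond 3. It had 6, 9 and 34 reads in Cond 1 and 4, 0 and 0 reads in Cond 3, so that all Cond 3 libraries were below all Cond 1 libraries. The log2 fold change was −3.58 (SE 1.06, adjusted p = 0.0101). The ratio of the summed counts, scaled to library totals, was 0.0763, with an exact 95% interval of 0.020 to 0.208 for counting error only. Without replicate 1 of Cond 3, the only Cond 3 library with reads, both remaining libraries were at 0 reads and the fitted value, −7.01, depends on the prior count. The call rested on few reads: it was lost without replicate 3 of Cond 1 (−2.58, adjusted p = 0.109) and in limma on log2(TPM + 1) (−0.85, adjusted p = 0.211) and on log2(TPM + 0.1) (−2.66, adjusted p = 0.110).

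Cond 3 was also set directly against Cond 2, whose medium was given from an earlier day. Cond 3 had 8 of the 10 genes lower and none higher, where 3.01% of all genes tested were lower and 5.76% higher. The genes were chosen on their values in the Cond 2 libraries, so this count follows from the choice and nothing is read from it. The differences were −5.80 (SE 0.33) for SIX3, −5.15 (SE 0.61) for RAX, −2.96 (SE 0.20) for LHX5, −2.46 (SE 0.16) for HESX1 and −1.03 (SE 0.13) for FEZF1, all as log2 fold changes. FEZF1 was thus the gene whose levels in the 2 media lay closest among these 5. The TPM ratio of FEZF1 to LHX5 was 0.497 ± 0.0590 in Cond 2 and 1.93 ± 0.356 in Cond 3, and that of SIX3 to LHX5 was 0.595 ± 0.0616 and 0.0890 ± 0.0370 (n = 3 for each).

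**Figure D2:**
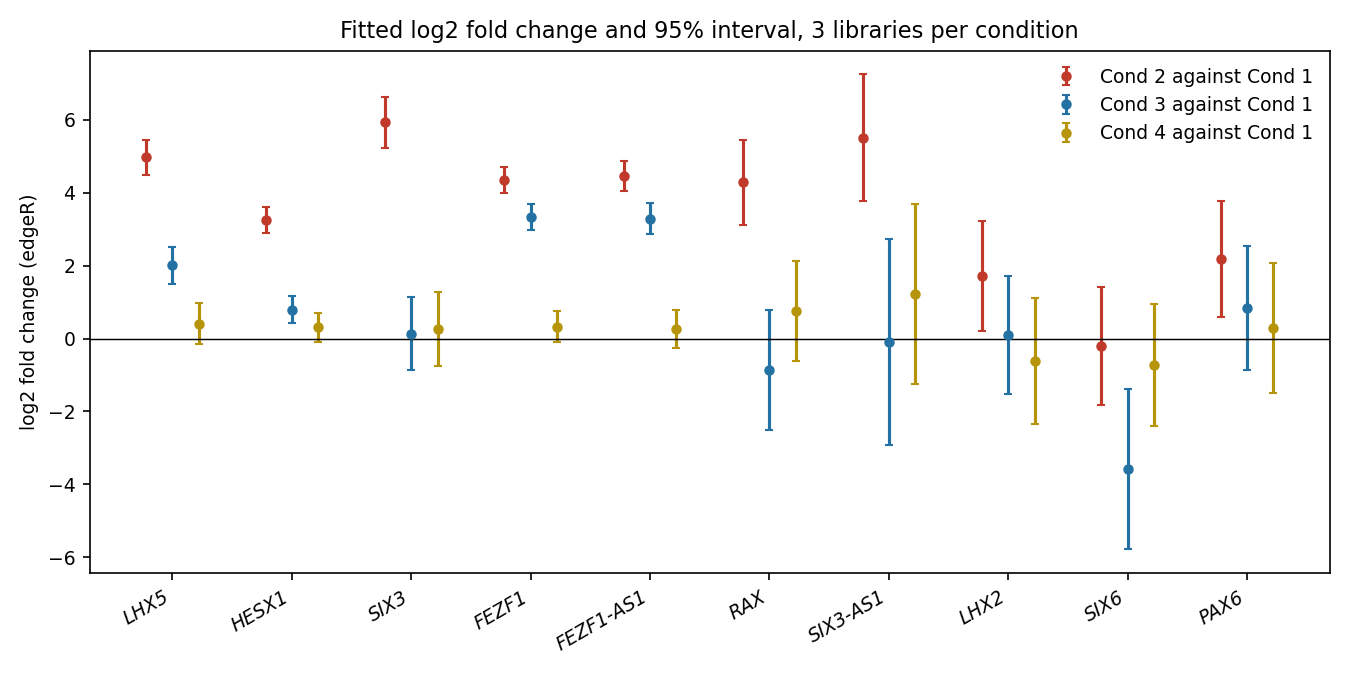
Log2 fold change of each gene against Cond 1 from edgeR, with 95% intervals, for Cond 2, Cond 3 and Cond 4 (3 libraries each). In Cond 3, the intervals of FEZF1, FEZF1-AS1, LHX5 and HESX1 lay above 0, that of SIX6 below 0 and those of the other 5 genes included 0; in Cond 4 all intervals included 0.

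Cond 4 against Cond 1 asked whether pipetting at passage changed the cells. None of the 10 genes was called, the log2 fold changes ran from −0.73 to 1.22, and the adjusted p-values in edgeR were 0.851 to 0.982. No gene had an unadjusted p-value under 0.05, and DESeq2 and limma also called none. Of all genes tested, 0.0113% were higher and 0.00563% lower. The 95% intervals were −0.08 to 0.70 for HESX1, −0.11 to 0.75 for FEZF1 and −0.16 to 0.97 for LHX5. For SIX3 the interval was −0.74 to 1.28, wide enough to hold changes of either sign. SIX3 was at 1.01, 2.44 and 5.18 TPM in Cond 4 and RAX at 0.0567, 0.628 and 1.89 TPM, with a spread between libraries as wide as in Cond 1. The library numbered 3 was the highest in Cond 4 for 8 of the 10 genes and in Cond 1 for 6 of them.

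The antisense genes followed their partners. FEZF1-AS1 was at a mean of 4.97, 115, 49.4 and 5.97 TPM in Cond 1 to Cond 4, and in Cond 3 it rose with a log2 fold change of 3.29 (SE 0.21, adjusted p = 2.25e-11). The TPM ratio of FEZF1-AS1 to FEZF1 was 0.844 ± 0.139 in Cond 1, 0.884 ± 0.109 in Cond 2, 0.820 ± 0.0675 in Cond 3 and 0.809 ± 0.186 in Cond 4 (n = 3 for each), so the differences between conditions were smaller than the spread. SIX3-AS1 had 1, 1 and 0 reads in Cond 1 and 42, 51 and 20 reads in Cond 2. The ratio of summed counts, scaled to library totals, was 54.1, with an exact 95% interval of 14.6 to 452 for counting error only. It had 0, 1 and 1 reads in Cond 3, too few for its fitted fold change to be read. In Cond 2 its TPM was 0.0393 ± 0.00940 of that of SIX3. In GENCODE 44, the exons of FEZF1 (chr7:122301303-122310691, minus strand) and FEZF1-AS1 (chr7:122303658-122310119, plus strand) share 782 bases, which is 26.6% of those of FEZF1. Those of SIX3 (chr2:44941702-44946071, plus strand) and SIX3-AS1 (chr2:44940153-44941916, minus strand) share 207 bases. The libraries were directional, but the strand setting of the counting is not given in the sources used here, and reads from the shared bases cannot be assigned to either gene.

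Genes that lie within 100 kb of the 10 genes were compared as well. Of 46 such genes, 45 had a count row and 20 were tested. In Cond 2 against Cond 1, 7 of the 20 were higher and none lower, where 1.84% of all genes tested were higher and 2.5% lower. The neighbours lie beside genes chosen on this contrast, so the count is not independent of that choice. The 7 genes lay at 2 loci. Around SIX3, 6 of 7 tested neighbours were higher: LINC01833, a lncRNA 2.50 kb away, with a log2 fold change of 3.80 (SE 0.35, adjusted p = 1.97e-08 in edgeR), 4 genes annotated as misc_RNA with values from 3.86 upwards, and the lncRNA ENSG00000225156 with 2.86 (SE 0.76, adjusted p = 0.00804). The misc_RNA genes lie inside LINC01833 on the other strand, and 1 of the 4 shares 219 exonic bases with it, so these rows are not separate evidence. LINC01833 was at 0.891, 1.15 and 3.31 TPM in Cond 1, at 39.1, 24.7 and 17.1 TPM in Cond 2 and at 1.43, 1.37 and 1.46 TPM in Cond 3. Like SIX3, it was high in Cond 2 and within the range of Cond 1 in Cond 3. SIX2, a kidney and craniofacial relative of SIX3 that lies 59.1 kb away, was not called (−0.59, adjusted p = 0.556).

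At the LHX5 locus (chr12:113462033-113472280, minus strand), the divergent lncRNA LHX5-AS1 was at 5.91, 14.2 and 17.98 TPM in Cond 1 and at 367, 262 and 180 TPM in Cond 2, with a log2 fold change of 4.32 (SE 0.28, adjusted p = 7.00e-11 in edgeR). In Cond 3 it was at 17.2, 11.5 and 18.8 TPM and was not called (0.29, adjusted p = 0.547), while LHX5 itself was. The TPM ratio of LHX5-AS1 to LHX5, examined after these values were seen, was 1.39 to 1.92 in Cond 1, 0.870 to 1.10 in Cond 2, 0.443 to 0.540 in Cond 3 and 0.770 to 1.27 in Cond 4. The Cond 3 libraries were below all others. The exons of the pair share 29 bases.

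At the SIX6 locus (chr14:60509146-60512850, plus strand), C14orf39, a meiotic gene whose span overlaps SIX6 without sharing exons, and the lncRNA ENSG00000258670 were lower in Cond 3. C14orf39 was at 4.23, 3.70 and 4.13 TPM in Cond 1 and at 2.57, 1.76 and 1.10 TPM in Cond 3 (log2 fold change −1.17, SE 0.27, adjusted p = 0.00160 in edgeR). ENSG00000258670 had 12, 12 and 18 reads in Cond 1 and 2, 1 and 3 reads in Cond 3 (−2.82, SE 0.71, adjusted p = 0.00305). They were the only 2 of the 20 neighbours called in Cond 3. No tested neighbour of HESX1, RAX, LHX2, FEZF1 or PAX6 was called in Cond 2 or Cond 3. Among them, CADPS2, next to FEZF1, fell in Cond 2 by less than the 2-fold limit (−0.85, adjusted p = 4.99e-07 in edgeR). Its mean was 22.5 TPM in Cond 1 and 13.2 TPM in Cond 2, and it was called higher in Cond 3 against Cond 2 (1.00). LMAN1, near RAX, was at −0.03 in Cond 2. In Cond 4 none of the 20 was called in edgeR.

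**Figure D3:**
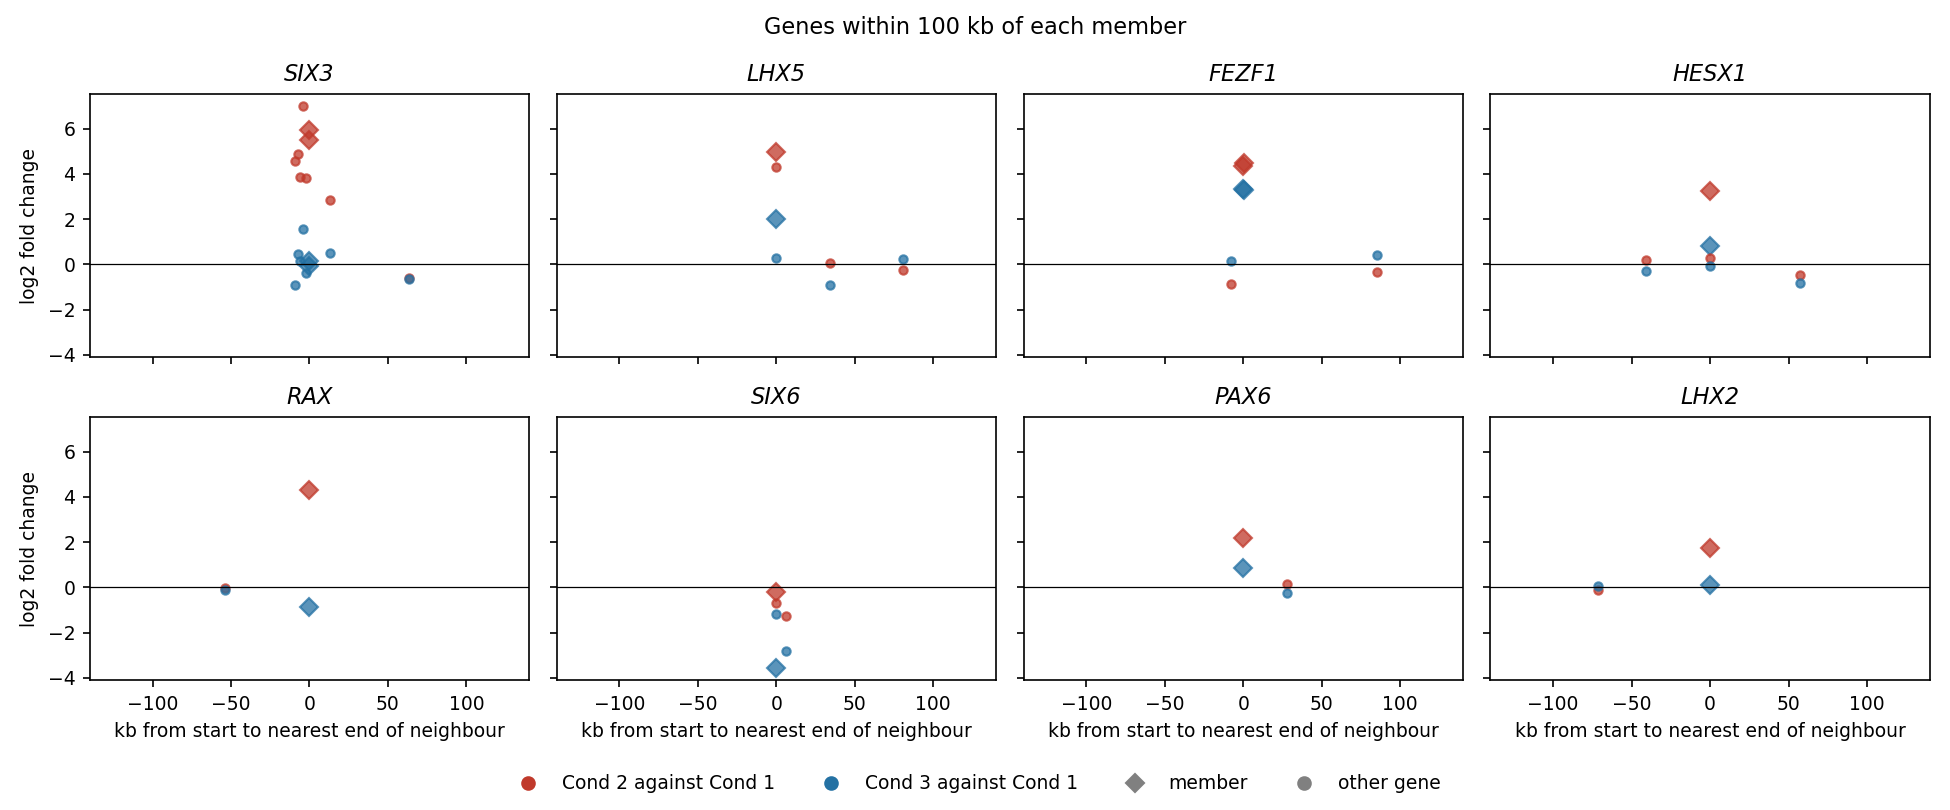
Log2 fold change in Cond 2 and Cond 3 against Cond 1 of the 10 genes (diamonds) and of the tested genes within 100 kb (circles), by distance in kb from the start of the gene to the nearest end of the neighbour, positive in its direction of transcription. Neighbours of SIX3 and the divergent RNA of LHX5 lay high with them in Cond 2, and neighbours of SIX6 lay below 0 with it in Cond 3.

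The counts for the lists below stand beside 1.84% of all genes tested higher and 2.5% lower in Cond 2, and 4.85% and 3.31% in Cond 3. The lists were chosen with earlier results of these data known. Other genes of the forebrain and eye field were mixed. In Cond 2 against Cond 1, 4 of 9 tested genes of this list were higher and 2 lower, with a median log2 fold change of 0.61. The higher ones included DMBX1, a midbrain and diencephalon homeobox gene (2.89, SE 0.36, adjusted p = 1.97e-06 in edgeR), FEZF2, the paralogue of FEZF1 (2.62, SE 0.81, adjusted p = 0.0233), and OTX2, which marks fore- and midbrain and the primed epiblast (1.61, SE 0.10, adjusted p = 3.00e-11). EMX1, a gene of the dorsal telencephalon, was lower (−2.46, SE 0.27, adjusted p = 3.53e-07). OTX2 was at a mean of 98.5 TPM in Cond 1, 318 TPM in Cond 2 and 193 TPM in Cond 3. NKX2-1, a gene of the hypothalamus, was at 0 in every Cond 2 library. In Cond 3 the list had 2 genes higher and 2 lower of 9.

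Posterior neural genes did not rise as a group. In Cond 2, 1 of 5 tested was higher, IRX3 (1.28, adjusted p = 2.38e-05 in edgeR), and 2 were lower, among them GBX2, a hindbrain and epiblast gene (−4.17, adjusted p = 5.17e-05). In Cond 3, 1 was higher and 3 were lower. Among general neural genes, 2 of 12 were higher in Cond 2, SOX21 (1.78, adjusted p = 1.28e-11) and ZNF521 (1.34, adjusted p = 4.99e-09), and in Cond 3 4 of 12 were higher, including the neuronal genes DCX (1.54, adjusted p = 6.71e-07) and TUBB3 (2.48, adjusted p = 0.000389). SOX1, an early marker of the neural plate, stayed below 1 TPM in every library.

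Genes that regulate the anterior neural plate or work with its factors were examined next. Of 11 tested antagonists of WNT, BMP and NODAL signals, 4 were higher and 1 was lower in Cond 2. FRZB, a secreted WNT antagonist, was at a mean of 4.36 TPM in Cond 1, 88.2 TPM in Cond 2 and 20.2 TPM in Cond 3, with log2 fold changes of 4.26 (SE 0.22, adjusted p = 2.07e-12 in edgeR) and 2.19 (adjusted p = 9.94e-08). SHISA2 (1.41, adjusted p = 6.64e-08) and the BMP antagonist NOG (1.44, adjusted p = 0.0258) were higher in Cond 2, and LEFTY1 was lower (−1.74, adjusted p = 0.00132). SFRP2 and SFRP1, at far higher levels than FRZB, went opposite ways. SFRP2 was at a mean of 737, 456 and 343 TPM in Cond 1 to Cond 3, and was called lower in Cond 3 only (−1.13, adjusted p = 1.05e-10 in edgeR). SFRP1 was at 921, 1304 and 1241.5 TPM and was not called. In Cond 3, 2 of the 11 antagonists were higher and 2 were lower. Of 15 corepressors and cofactors of LIM proteins, 1 was higher and 2 were lower: LMO1, a LIM-only protein, rose from a mean of 0.938 to 43.5 TPM (5.38, SE 0.41, adjusted p = 9.33e-10), and LMO3 (−2.41, adjusted p = 0.000120) and LDB2, which binds LIM domains (−1.02, adjusted p = 5.35e-08), fell. None of the Groucho corepressors TLE1 to TLE5 was called, but 1 limit was the 2-fold change. TLE3 (0.73, adjusted p = 2.69e-08), TLE4 (0.39, adjusted p = 0.000951) and TLE1 (0.23, adjusted p = 0.00518) were higher in Cond 2 by less than that. The adjusted p-values of TLE2 and TLE5 were 0.764 and 0.549. Of 11 tested paralogues, 4 were higher and none lower in Cond 2: LMX1A (3.37), FEZF2, LHX8 (2.33) and LHX4 (1.00).

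Markers of other ectoderm also moved in Cond 2 and in Cond 3. Of 12 tested genes of placodes and surface ectoderm, 6 were higher and none was lower in Cond 2, and 5 were higher and 1 was lower in Cond 3. TFAP2A was higher by 4.84 on the log2 scale in Cond 2 (adjusted p = 3.86e-08 in edgeR) and by 2.28 in Cond 3 (adjusted p = 0.00108). EYA1, EYA2, DLX3 and GATA2 were the others higher in Cond 3, and MSX1 was lower (−3.97, adjusted p = 0.000334). DLX3 ran from 0 to 1.32 TPM between the Cond 3 libraries, so its call there (5.89, SE 1.88) rests on low and uneven levels. In Cond 2, DLX5 was at a mean of 0.0694 TPM in Cond 1 and 13.7 TPM in Cond 2. DLX3 and DLX6 were at 0 in every Cond 1 library and at means of 1.70 and 3.01 TPM in Cond 2. The 16 genes of the list summed to 113 to 128 TPM per library in Cond 1, 200 to 212 TPM in Cond 2, 121 to 140 TPM in Cond 3 and 122 to 126 TPM in Cond 4. FOXI3, SIX4 and TFAP2C, none of them called, made up most of these sums. FOXI3 alone was at a mean of 63.2 TPM in Cond 1 and 106 TPM in Cond 2 (0.65, below the 2-fold limit). TP63 was at 0 in every Cond 2 library. Of 4 tested neural crest genes, 2 were lower in Cond 2, FOXD3 (−2.08) and ETS1 (−1.44). SOX9 went the other way (0.89, adjusted p = 1.03e-05 in edgeR), below the 2-fold limit. In Cond 3 SOX9 was called higher (1.33) and SNAI2 lower (−4.99, from a mean of 0.762 TPM). SOX10, which was not tested, was at a mean of 5.22 TPM in Cond 1 and 10.6 TPM in Cond 2. The 8 genes of the list summed to 94.1 to 101 TPM in Cond 1, 54.1 to 70.3 TPM in Cond 2, 116 to 124 TPM in Cond 3 and 94.7 to 97.6 TPM in Cond 4. None of 5 tested mesendoderm genes was called in Cond 2 in edgeR, and 1 was higher in Cond 3, TBXT, with a mean of 0.0806 TPM in Cond 1 and 1.12 TPM in Cond 3 (adjusted p = 0.00336). Of 12 primed pluripotency genes, 3 were lower in Cond 2, FOXD3, TDGF1 (a mean of 1299 TPM in Cond 1 and 490 TPM in Cond 2) and NANOG (−1.09), and 1 was lower in Cond 3, NANOG (−2.16, adjusted p = 1.40e-14 in edgeR). NANOG was at a mean of 45.9 TPM in Cond 1, 22.9 TPM in Cond 2 and 10.5 TPM in Cond 3. The part of these markers in the values of the 10 genes was not tested. In Cond 4 no gene of any list was called.

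**Figure D4:**
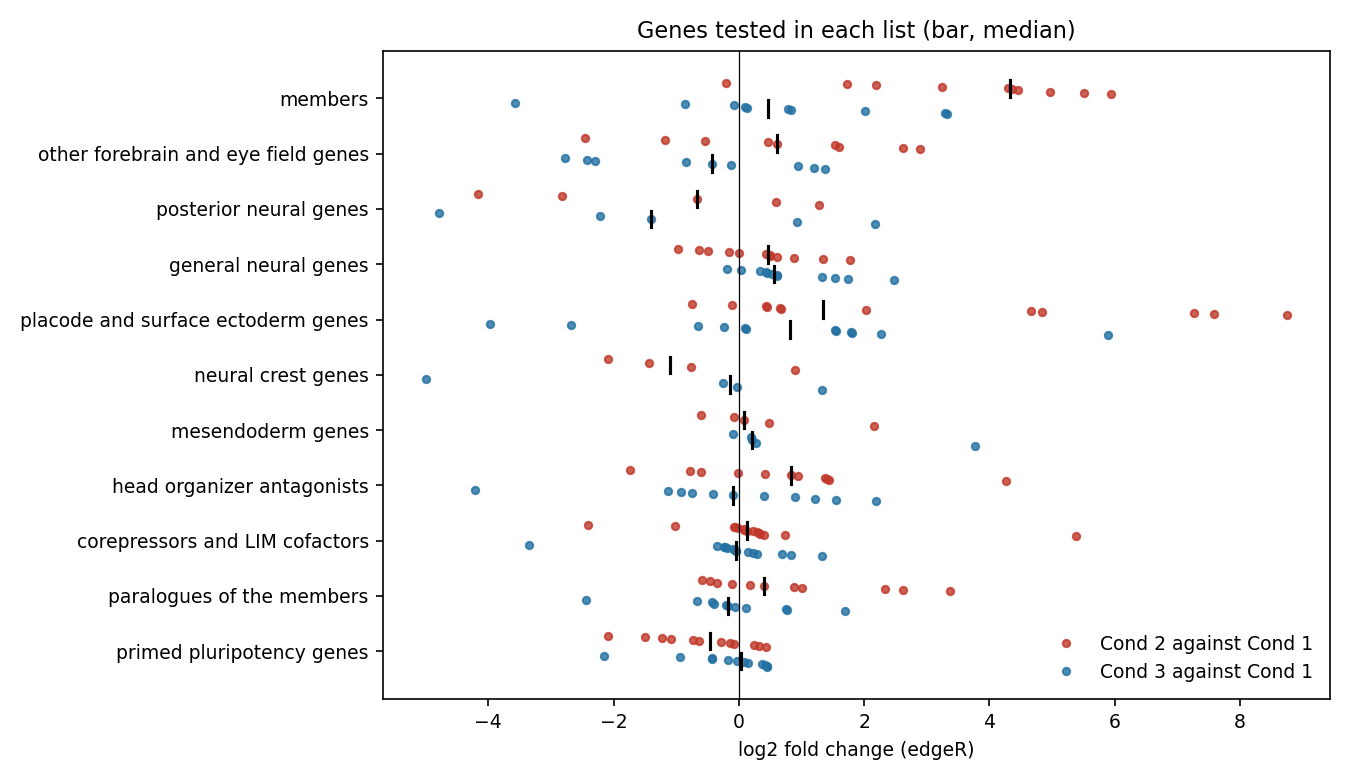
Log2 fold change in Cond 2 and Cond 3 against Cond 1 of the tested genes of each list; points are genes and bars are medians. The 10 genes had a median of 4.32 in Cond 2 and 0.46 in Cond 3, and the other lists had medians between −1.10 and 1.35 in Cond 2. The 10 genes were chosen on the Cond 2 contrast, so nothing is read from their distance to the lists there.

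Over the 12 libraries, the genes whose log2 CPM values were most like those of each gene were taken from 11316 genes by Pearson's r. The coefficients describe a data set in which the 3 Cond 2 libraries stand apart for most of these genes. SIX3 was most like PRTG (r = 0.990), LINC01833 (0.985) and the imprinted gene DLK1 (0.984), which were also high in Cond 2. DLK1 was at a mean of 5.55 TPM in Cond 1, 123 TPM in Cond 2 and 4.01 TPM in Cond 3. HESX1 was most like the ephrin receptor gene EPHA4 (0.992), FLRT3 (0.990) and GREB1L (0.989). LHX5 was most like PLEKHB1 (0.988), NNAT (0.984) and FRZB (0.983). FEZF1 and FEZF1-AS1, which were also high in Cond 3, were most like C1orf21 (0.989) and SOX21-AS1 (0.992), with CBLN1 among the 3 nearest genes of both. RAX was most like JPT2 (0.978), whose mean was 207 TPM in Cond 1 and 240 TPM in Cond 2, so a high r did not mean a like size of change. The nearest genes of LHX2, SIX6 and PAX6 reached 0.847, 0.918 and 0.890. Among the genes themselves, r was 0.995 for FEZF1 with FEZF1-AS1, 0.969 for LHX5 with HESX1, 0.954 for SIX3 with RAX, 0.730 for SIX3 with FEZF1 and 0.242 for SIX3 with SIX6.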

How the data were processed

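RNA-Seq was measured in 12 libraries of 201B7, 3 for each of 4 conditions, grouped by their labels. The authors trimmed reads with cutadapt 4.1 and fastp 0.20.1, used HISAT2 2.1.0 for alignment to GRCh38 and featureCounts for reads per gene. The deposited counts are whole reads per gene without normalization. The deposited TPM values are counts scaled by gene length by the authors and were recomputed from the counts with a largest relative deviation of 5.22e-15. The annotation release, the strand setting and the treatment of multiply mapping reads are not given in the sources used here. The 5 damaged lines of the count table were left out, and 2042 genes with a TPM but no count were not tested.

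Counts were scaled by TMM and filtered by filterByExpr, and edgeR 4.0.16 (R 4.3.3) was used for a quasi-likelihood test in one fit of 12 libraries with Benjamini-Hochberg adjustment over 17747 genes. Genes were called at a fold change over 2 with an adjusted p below 0.05. Intervals are 95% intervals, and intervals of count ratios are exact and cover counting error only. Totals of 16441148 to 21871503 counts leave genes below about 1 TPM with few reads. The 12 pairs of replicates had a chi-square per gene of 4.18 to 10.2, so each library was kept as 1 sample. The statistics were tested on simulated data. Alternatives were DESeq2 1.42.0, limma 3.58.1 on log2(TPM + 1) and log2(TPM + 0.1), the 6 libraries alone, scaling by upper quartile, all genes without a count filter, a replicate block and each library left out. Coordinates and neighbours within 100 kb were taken from GENCODE 44 on GRCh38 (99.5% of identifiers found), because the count table has no coordinates.

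The 10 genes and the gene lists were chosen with earlier results of these data known. Named besides them were up to 4 genes per list with the largest change in Cond 2 at an adjusted p-value under 0.05, all tested neighbours, and the 3 most like genes with a mean CPM of at least 5 (prior count 1). Other genes named from the lists, chosen after their values were seen, were DCX, TUBB3, SOX1, NKX2-1, TP63, TBXT, EYA1, EYA2, GATA2, MSX1, FOXI3, SIX4, TFAP2C, SOX10, SNAI2, POU5F1, SOX2, LIN28A, SFRP1, SFRP2 and TLE1 to TLE5. Values of some single genes of the lists are not reported here.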

Additional observations from a re-analysis of the deposited data

How the results depend on the processing

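Refits of Cond 2 against Cond 1 use the libraries on which the genes were chosen, so their agreement is no support. The number of the 10 genes called was 8 in Cond 2 against Cond 1 and 8 in Cond 3 against Cond 2. It was 4 in both in limma when every library had to reach 1 TPM, where only HESX1, LHX5, FEZF1 and FEZF1-AS1 could be tested. Leaving out 1 library gave 7 to 9 in Cond 2 against Cond 1, 3 to 4 in Cond 3 against Cond 1, 0 in Cond 4 and 6 to 8 in Cond 3 against Cond 2. With DESeq2, 2 paralogues were called in Cond 2 (4 in edgeR) and 1 cofactor in Cond 3 (2 in edgeR), and the cause was not tested.

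Some fold changes that were not called changed sign when 1 library was left out. Over such fits the log2 fold change ran from −0.31 to 0.85 for SIX3 in Cond 3 and −0.48 to 0.98 in Cond 4, −0.64 to 0.47 for SIX3-AS1 in Cond 3 (at most 1 read per library), −1.43 to 0.80 for SIX6 in Cond 2 and −1.13 to 0.27 in Cond 4, −0.20 to 0.35 for LHX2 in Cond 3, −1.37 to 0.23 for RAX in Cond 3 and −0.55 to 1.85 in Cond 4, and −0.86 to 1.17 for PAX6 in Cond 4. PAX6 in Cond 2 was no longer called in limma with either pseudocount (0.23 and 1.14) or without replicate 1 or 2 of Cond 1 (1.61 and 2.28) or replicate 2 or 3 of Cond 2 (2.37 and 1.65), with the log2 fold change positive in each. The deviations of same-numbered libraries from their group means correlated at −0.08 to 0.10 in 18 pairs, with a median of 0.038. In the 36 pairs with different numbers the range was −0.15 to 0.14 and the median −0.012. Of the 12 libraries, 4 correlated best with their own number in every other condition, among them all libraries of Cond 4. The correlations were weak, and whether libraries with the same number shared a plate or batch was not tested. With the replicate block, 8 of the 10 genes were called in Cond 2, 4 in Cond 3, 0 in Cond 4 and 8 in Cond 3 against Cond 2, as without it. Depth limited PAX6, SIX3-AS1, SIX6, LHX2 and RAX, each at 38 reads or fewer in every Cond 1, Cond 3 and Cond 4 library.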
